A study of Mus musculus with 9 samples.

Results

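Nsd2-silenced and MCTP-treated mouse prostate cancer cells were compared directly with each other. The members were taken by title, as the 3 shNsd2 libraries and the 3 MCTP libraries, 6 of the 9 RNA-seq libraries of cultured NPK cells in the series. The 3 control libraries serve here as a reference level and joined no test apart from 1 alternative, a fit of all 9 libraries. All 12842 genes of the deposited table were considered, and 12217 of them passed a filter on low values and were tested.

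All 9 libraries came from NPK cells, which the authors grew from lung metastases of a mouse prostate cancer model, so every group carried the engineered alleles of that model. In the shNsd2 group, Nsd2 was silenced with an shRNA delivered by a pLKO.1 lentivirus. Which shRNA was used is not given for these libraries, and their source labels differ from their titles, with Nsd2 for replicate 1, Nsd3 for replicate 2 and Nsd4 for replicate 3. The MCTP group is labelled with the compound numbers 39, 40 and 41, 1 library each, so the compound number and the library cannot be told apart. The paper describes number 39 alone (3-hydrazinoquinoxaline-2-thiol), a putative NSD2 inhibitor that, by its authors' own caveat, may lack specificity, and gives no dose or time for NPK cells. For silencing experiments the paper describes a control vector against luciferase, but whether the control libraries carried it, or received vehicle, is not stated.

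NSD2 is a histone methyltransferase that places the dimethyl mark on lysine 36 of histone H3, a mark of active chromatin that opposes the repressive lysine 27 methylation placed by Polycomb repressive complex 2. High NSD2 activity is known from multiple myeloma with a translocation of the gene and from advanced prostate cancer. Silencing lowers the amount of the protein, whereas an inhibitor is meant to block the enzyme and leave the protein in place.

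Each value is a log2 expression level as deposited by the authors. A difference is the shNsd2 mean minus the MCTP mean, and a gene is called higher or lower in shNsd2 where the adjusted p from limma was under 0.05. The median absolute difference was 0.12 when the lowest 2444 of the genes by mean were taken, 0.17 for the 2443 above them and 0.15 for the highest 2444. The part of the transform in this was not tested. The paper mentions variance stabilization by DESeq2, but the table analysed here does not name its transform, so folds, taken as 2 to the power of the difference, are approximate.

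MCTP replicate 2 stood apart from the other two MCTP libraries. It was higher than their mean by more than 0.5 at 384 genes and lower at 2. A range above 0.5 within the group was found at 586 genes for MCTP, at 35 for control and at 8 for shNsd2, and the median standard deviation was 0.088, 0.052 and 0.044 in the same order. The deviation of MCTP replicate 2 from its group followed the GC content of transcripts across genes (Spearman -0.72 over 11940 genes, which are not independent replicates). The same sign was found for control replicate 1 (-0.60) and shNsd2 replicate 3 (-0.66), so each group held 1 such library. The 384 genes had a median GC content of 41.4%, against 50.8% for all genes tested. Of these 384, 141 were called, all 141 higher in shNsd2, while 43.2% of all genes tested were called. The part of GC content or of the compound number in this library was not tested, and values without it are given beside many of the results. Pearson correlations between replicates across genes ran from 0.9953 to 0.9998. Before rounding, identical values in a pair of replicates were found at 0 genes.

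The cells carried markers of prostate epithelium. Krt8 and Krt18, the keratins of luminal cells, had means of 16.07 and 15.38 in shNsd2 and 16.54 and 15.38 in MCTP. Hoxb13, a homeobox factor of the prostate lineage, was at 10.32 and 10.51. Of 6 luminal markers tested, 5 lay above the median of genes tested, and Tmprss2 (6.72 and 7.20) lay below it. The mesenchymal gene Vim was abundant as well, with a mean of 17.29. Epcam lay below the filter in all 9 libraries, and Pbsn, Cldn7 and Krt5 were not in the table analysed here, so Pbsn, a defining luminal gene, could not be checked. None of the 7 leukocyte markers was in the table (0 of 7). Of 5 endothelial markers, Cdh5 alone was in the table, and it lay below the filter. Among 8 fibroblast markers, 4 were in the table and 3 were tested, with Col3a1 the most abundant at 10.52 and 10.68, while Col1a2, Pdgfrb, Lum and Thy1 were not in the table. Of 6 neuroendocrine markers, 4 were in the table, 3 were tested and all 3 lay below the median of genes tested. Among them, Insm1 was higher in shNsd2 (0.46, adjusted p = 9.68e-05) and Eno2 lower (-0.22, adjusted p = 0.0014).

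Smooth muscle markers moved with the MCTP group. Their summed level was 6.43, 6.54 and 6.40 in the shNsd2 libraries, 8.99, 8.89 and 9.23 in the MCTP libraries, and 6.27, 6.42 and 6.37 in the control libraries. Acta2, the smooth muscle actin, made up most of it, and Tagln was the other of the 2 markers tested. Myh11 and Des were not in the table and Cnn1 lay below the filter in every library. The part of smooth muscle-like cells in the difference was not tested. In bulk RNA, fewer cells of a type and less RNA per cell cannot be told apart.

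Nsd2 itself was lower in the silenced cells than in the treated cells. The table lists it under its earlier symbol Whsc1 (ENSMUSG00000057406.8, chromosome 5 of GRCm38, bases 33820725-33897975, + strand). The shNsd2 libraries had log2 levels of 11.56, 11.61 and 11.68, the MCTP libraries 12.15, 12.21 and 12.07, and the control libraries 12.48, 12.43 and 12.42. The 3 groups did not overlap, with control highest and shNsd2 lowest. The difference was -0.53 (standard error 0.0558, 95% interval -0.66 to -0.40, adjusted p = 4.24e-04), and an exact two-sided permutation test gave p = 0.1, the smallest that 3 libraries against 3 allow. Against the control mean on a linear scale, Nsd2 mRNA was at 0.564 ± 0.0247 (SD, n = 3) in shNsd2 and at 0.813 ± 0.0391 (SD, n = 3) in MCTP. By size, Nsd2 ranked 462 among the genes called lower. The 3′ end of Nsd2 overlaps Nelfa on the opposite strand, and the strand of counting is not stated.

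Of the genes tested, 5276 (43.2%) were called, 2513 (20.6%) higher and 2763 (22.6%) lower in shNsd2. Counts given for lists of genes below are to be read against these shares. The groups of libraries did not overlap at 6715 genes (55%). The median difference over all genes tested was 0.0072. Called genes differed by a median of 0.30 in either direction, and 887 of them differed by more than 0.5, with 360 higher and 527 lower in shNsd2. Beyond 1, the counts were 19 higher and 70 lower. At 3300 called genes (62.5%) the control mean lay between the other two group means, at 1006 above both and at 970 below both. The MCTP mean was the lowest of the 3 at 2145 called genes. Without MCTP replicate 2, 7781 genes were called, 3858 higher and 3923 lower, and they held 5253 of the 5276. Fewer than 5276 were called when any other library was left out. The counts were 3391 and 4662 without MCTP replicates 1 and 3, and 3571, 3429 and 3420 without shNsd2 replicates 1, 2 and 3. At 28 called genes, 6 higher and 22 lower, all 3 libraries of 1 group lay at or below the level of the filter.

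**Figure D1:**
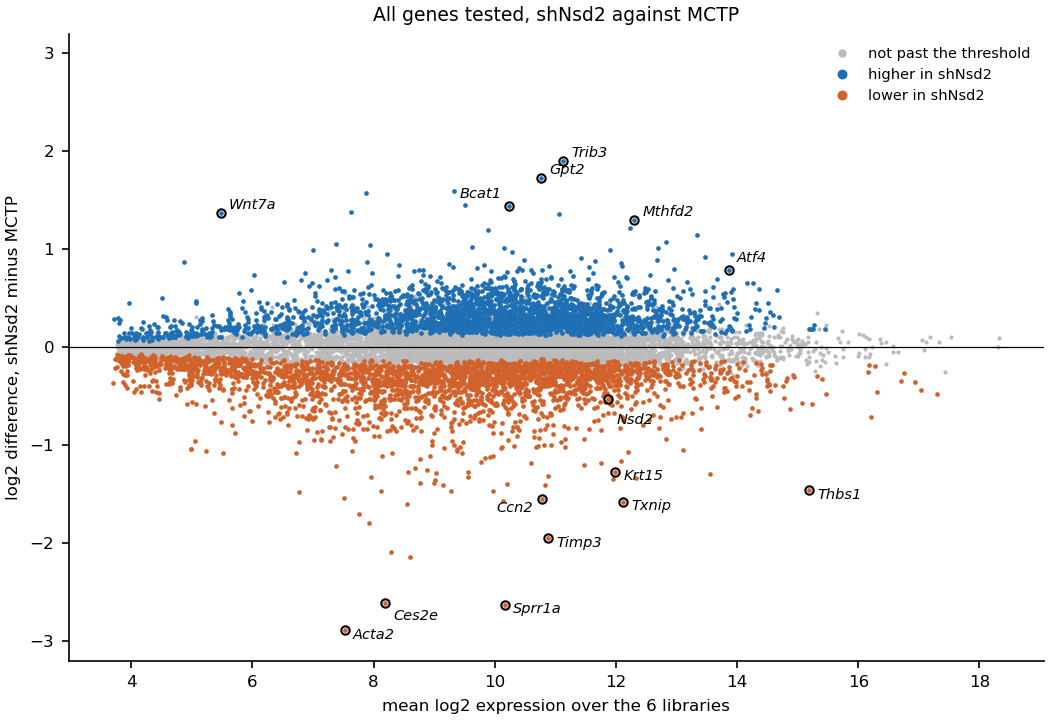
Log2 difference between shNsd2 and MCTP (y axis) against mean log2 expression over the 6 libraries (x axis) for the 12217 genes tested, 1 point per gene, coloured by call. The difference ran from -2.89 at Acta2 to 1.90 at Trib3.

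The differences followed the GC content of transcripts (Spearman -0.26 across 11940 genes). Differences from control followed it as well, at 0.47 for MCTP and 0.24 for shNsd2. Control positions and medians against control are not corrected for GC content. Among the 2388 genes with the lowest GC content, 676 were higher and 234 lower in shNsd2, while the 2388 with the highest GC content had 379 higher and 634 lower. With each library corrected for GC content, 6775 of 11940 genes were called, 3350 higher and 3425 lower. That correction also removes any real difference that follows GC content.

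Of the 13 enzymes of the H3K36 mark tested, 5 were higher in shNsd2 and 1, Nsd2, was lower, with a median of 0.11 (6 and 2 without MCTP replicate 2, 3 and 1 after quantile normalization). The share called was 46.2%, near the 43.2% of all genes tested. Nsd1, a paralog that also makes the dimethyl mark, was at 11.87, 11.92 and 12.06 in shNsd2 and at 11.45, 11.69 and 11.30 in MCTP, with 12.08, 11.88 and 11.95 in control. All shNsd2 libraries lay above all MCTP libraries and overlapped control. The difference was 0.47 (standard error 0.101, adjusted p = 0.00845), and 0.58 without MCTP replicate 2. Setd2, which makes the trimethyl mark, differed by 0.43 with overlapping groups (0.62 without MCTP replicate 2), and Ash1l, another H3K36 methyltransferase, by 0.37 (0.52 without it). Quantile normalization ended the calls of Setd2 (adjusted p = 0.060) and Ash1l (0.0528), and the stricter filter that of Setd2 (0.052). The demethylases Kdm4a (0.28) and Kdm2b (0.24) were also higher. Nsd3, the other paralog, differed by 0.18 (adjusted p = 0.147), and the adjusted p was 0.156 for the demethylase Kdm2a, 0.337 for Kdm8, 0.834 for Kdm4c, 0.748 for Kdm4b, 0.393 for Setmar and 0.241 for Smyd2. Without MCTP replicate 2, Nsd3 (0.27, adjusted p = 0.00269) and Smyd2 (-0.15, adjusted p = 0.011) were called, and after the GC correction Kdm2a (0.10), Kdm4c (-0.12) and Kdm8 (0.16).

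The list of Polycomb repressive complex 2 and the demethylases that remove its mark showed 7 genes higher and 0 lower of 12 tested (median 0.26), and 10 and 1 without MCTP replicate 2. Suz12, a core subunit of Polycomb repressive complex 2, was at 11.40, 11.36 and 11.55 in shNsd2 and at 10.61, 11.13 and 10.46 in MCTP. The groups were apart, with MCTP replicate 2 well above the other MCTP libraries. The difference was 0.70 (standard error 0.158, adjusted p = 0.0104), 0.90 without MCTP replicate 2 and 0.47 after the GC correction. Mtf2, an accessory subunit, differed by 0.56, Rbbp7, a histone-binding subunit, by 0.32, and Eed, which reads lysine 27 methylation, by 0.30. Rbbp4, another histone-binding subunit and the most abundant member, differed by 0.24 but was not called after the GC correction (0.16, adjusted p = 0.130). Kdm6b, a demethylase named after its value was seen, was also higher (0.27). For DNA methylation, 4 of 7 genes were higher and 0 lower (median 0.24), namely the maintenance methyltransferase Dnmt1 (0.38), its partner Uhrf1 (0.31), the de novo enzyme Dnmt3b (0.26) and Tet3, which oxidises methylcytosine (0.24, not called with the replicate block, adjusted p = 0.0624).

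Genes on the 5 lists of amino acid supply and the integrated stress response made up 11 of the 19 genes that were higher in shNsd2 by more than 1. These lists held 84 of the 12217 genes tested and were chosen with earlier results of these data known. The integrated stress response list, the targets and partners of the transcription factor Atf4, which cells make when amino acids run short or proteins misfold, had 16 genes higher and 2 lower of 20 tested (median 0.42). Serine and one-carbon enzymes had 10 higher and 1 lower of 12 (median 0.58), other amino acid enzymes 9 and 1 of 17 (median 0.29), amino acid transporters 11 and 2 of 15 (median 0.50), and cytosolic tRNA synthetases 15 and 0 of 20 (median 0.56). Without MCTP replicate 2, 4 genes of the integrated stress response list and 5 other amino acid enzymes were lower, and the counts of higher genes on these 2 lists were 16 and 9. Under the stricter filter the serine list had 10 higher and 0 lower of 10, and the other amino acid enzymes 9 and 0 of 15. Both treated groups share the control libraries, and against control the medians in the same order of lists were 0.13, 0.16, 0.13, 0.08 and 0.08 for shNsd2 and -0.35, -0.50, -0.17, -0.51 and -0.44 for MCTP.

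**Figure D2:**
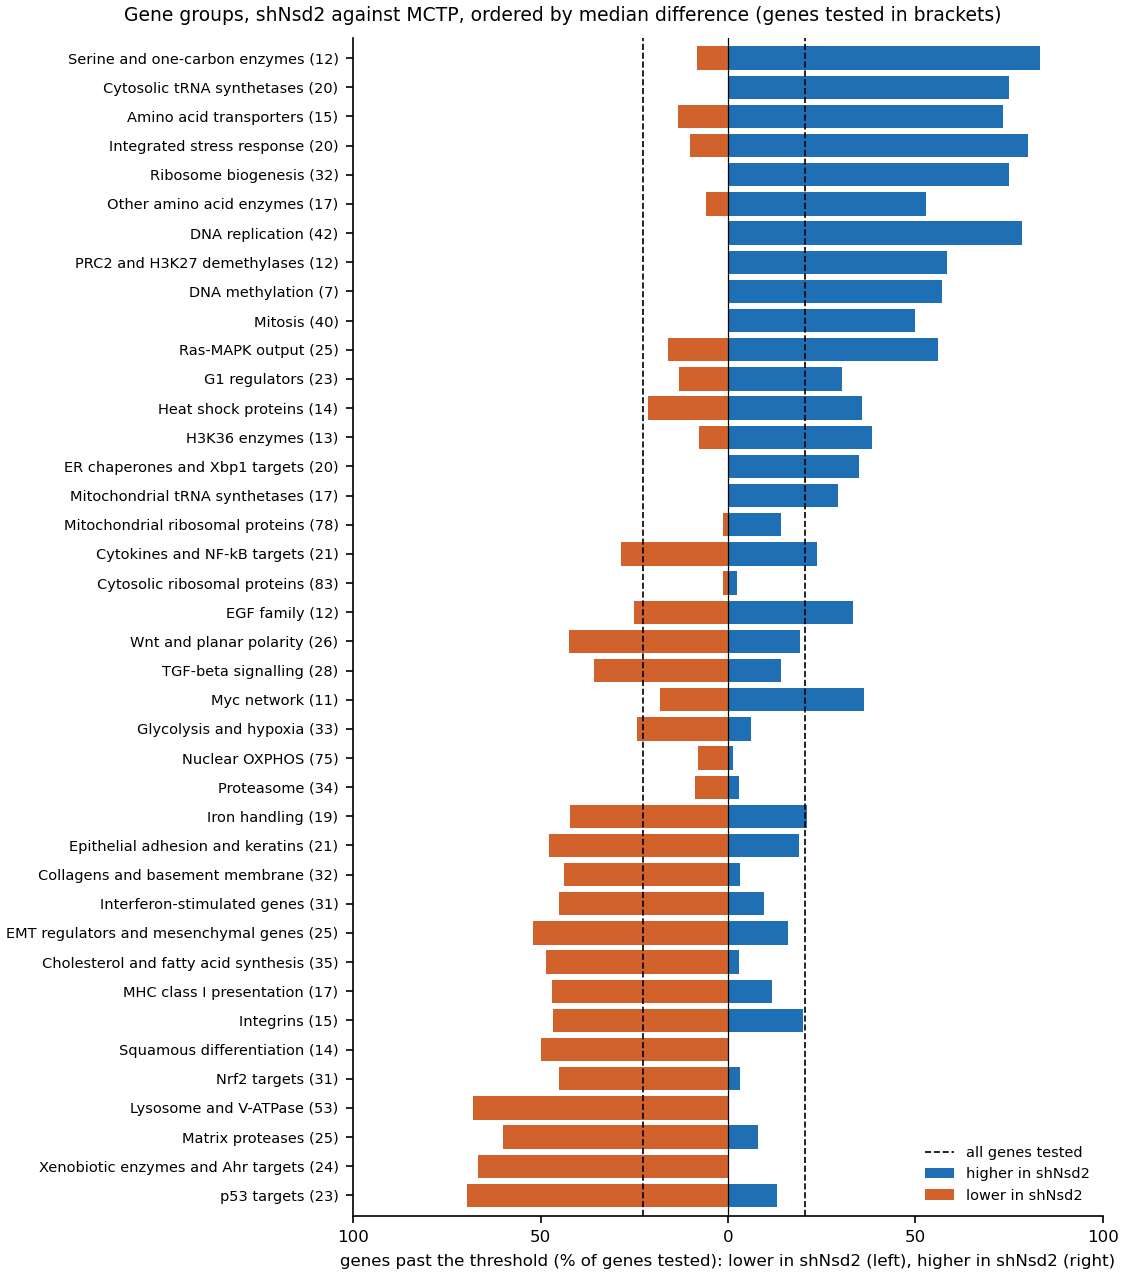
Share of each gene group called higher in shNsd2 (right) or lower (left), in percent of the genes tested, which are given in brackets, with dashed lines at 20.6% and 22.6% for all genes tested. Groups are ordered by median difference, from 0.58 for serine and one-carbon enzymes to -0.38 for p53 targets, and the cytosolic ribosomal protein median changed sign under 6 alternatives: the GC correction with or without the replicate block, the length correction, quantile normalization, and without MCTP replicate 3 or shNsd2 replicate 3.

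Atf4 (ENSMUSG00000042406.6, chromosome 15, 80255184-80257541) was at 14.26, 14.25 and 14.28 in shNsd2, at 13.50, 13.40 and 13.50 in MCTP, and at 13.99, 14.16 and 14.28 in control. All MCTP libraries lay below all others, and the shNsd2 libraries overlapped control. The difference was 0.79 (standard error 0.0487, 95% interval 0.68 to 0.91, adjusted p = 4.56e-05). Trib3 (ENSMUSG00000032715.8, chromosome 2, 152337422-152344032), a pseudokinase that Atf4 induces, was at 12.09, 12.04 and 12.11 in shNsd2, at 10.19, 9.99 and 10.36 in MCTP, and at 11.20, 11.71 and 11.94 in control. Here the 3 groups were fully apart, with shNsd2 highest and MCTP lowest. The difference of 1.90 (standard error 0.0897, 95% interval 1.69 to 2.11, adjusted p = 2.07e-05) was the largest in favour of shNsd2, a 3.73-fold higher level. Chac1, an enzyme that breaks down glutathione, differed by 1.45, and Atf5, a related transcription factor, by 0.83. The 2 lower members, named after their values were seen, were Atf3 (-0.29) and Eif2ak3 (-0.23, not called with the replicate block, adjusted p = 0.0605), the kinase of the unfolded protein response.

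The mitochondrial folate enzyme Mthfd2 was at 12.91, 12.92 and 13.01 in shNsd2, at 11.70, 11.58 and 11.66 in MCTP, and at 12.70, 13.00 and 13.04 in control. The MCTP libraries were low, and shNsd2 and control overlapped. The difference was 1.30 (standard error 0.0515, adjusted p = 1.45e-05), 2.46-fold. Aldh1l2, which oxidises formyl folate in mitochondria, differed by 1.57, Shmt2, which splits serine into glycine and a one-carbon unit, by 1.15, and the serine synthesis enzymes Psat1 and Phgdh by 0.95 and 0.60. Aldh1l1, the cytosolic counterpart of Aldh1l2, was the lower gene of the list (-0.52, named after its value was seen). Pck2, the mitochondrial enzyme that makes phosphoenolpyruvate, is on none of the lists and differed by 1.22.

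Gpt2, the mitochondrial alanine aminotransferase, was at 11.62, 11.57 and 11.69 in shNsd2, at 9.95, 9.76 and 9.98 in MCTP, and at 11.14, 11.48 and 11.57 in control. MCTP was low in all 3 libraries, and shNsd2 was at or above the highest control library. The difference was 1.73 (standard error 0.0696, adjusted p = 1.51e-05), 3.31-fold. Cth, which makes cysteine from cystathionine, differed by 1.60, Bcat1, which transaminates branched-chain amino acids, by 1.44, the asparagine synthetase Asns by 1.07 and Aldh18a1, the first enzyme of proline synthesis, by 1.01.

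Among transporters, Slc7a5, the large neutral amino acid carrier, was at 13.94, 13.93 and 13.90 in shNsd2, at 13.03, 12.89 and 13.09 in MCTP, and at 13.90, 14.22 and 14.31 in control. Every MCTP library was below all the others. The difference was 0.92 (standard error 0.0597, adjusted p = 5.19e-05). The glycine carrier Slc6a9 differed by 1.36, the glutamine carrier Slc1a5 by 0.99 and the cystine carrier Slc7a11 by 0.89 (1.07 without MCTP replicate 2, 0.73 after the GC correction). Slc43a2 (-0.61, named after its value was seen) and the taurine carrier Slc6a6 (-0.20, not called with the replicate block, adjusted p = 0.0862) were lower.

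**Figure D3:**
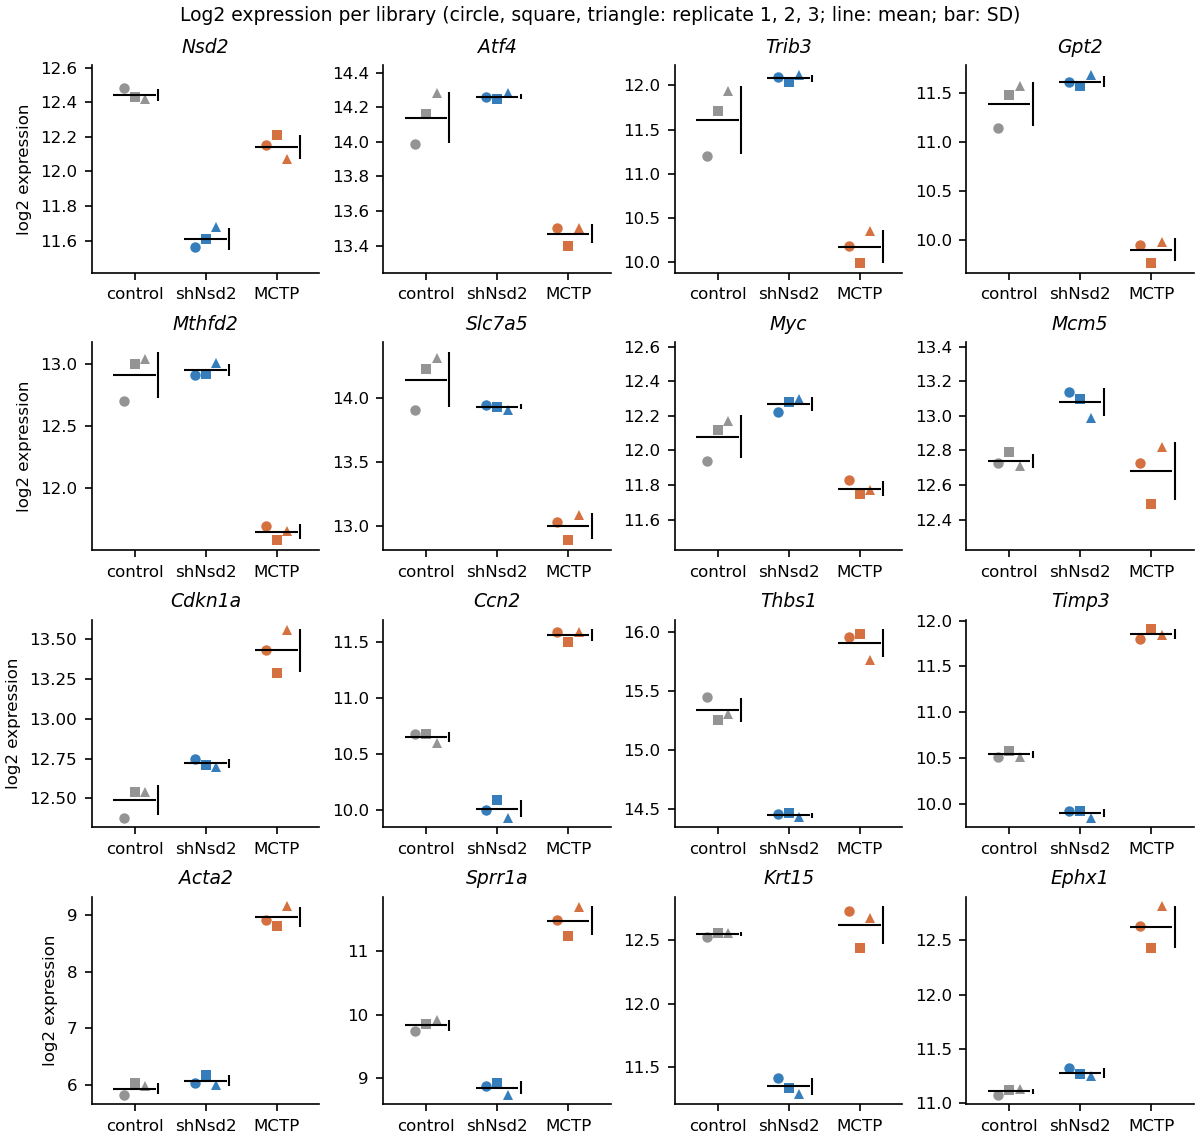
Log2 expression of 16 genes in each library (symbols by replicate), with the group mean (line) and SD (bar), and y axes that differ between panels. For Atf4, Trib3, Gpt2, Mthfd2 and Slc7a5 the 3 MCTP libraries lie below all shNsd2 and control libraries, and for Cdkn1a, Ccn2, Thbs1, Timp3, Acta2, Sprr1a and Ephx1 they lie above all others.

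The cytosolic tRNA synthetases, which charge tRNAs with their amino acids, were led by Lars, the leucine enzyme. Its levels were 13.08, 13.06 and 13.21 in shNsd2, 12.26, 12.25 and 12.18 in MCTP, and 12.98, 13.14 and 13.13 in control. MCTP alone was low. The difference was 0.89 (standard error 0.0546, adjusted p = 4.61e-05), and Cars, Tars and Nars, for cysteine, threonine and asparagine, differed by 0.74, 0.72 and 0.70. Of 17 mitochondrial tRNA synthetases, 5 were higher and 0 lower (median 0.06), led by Wars2 (0.37) and Pars2 (0.22), with Yars2 (0.18) and Iars2 (0.16). With the replicate block 1 was higher, Wars2, and Pars2 (adjusted p = 0.0893), Yars2 (0.119) and Iars2 (0.147) were not called, with values centred on medians 2 were higher, and without MCTP replicate 2 the counts were 6 and 1. ER chaperones and Xbp1 targets had 7 higher and 0 lower of 20 (median 0.07), and 10 and 4 without MCTP replicate 2. They included Herpud1 (0.61), a part of ER-associated degradation, and the secreted ER stress protein Creld2 (0.37) and the chaperones Hspa5 (0.45) and Hsp90b1 (0.38, 0.24 after the GC correction), whereas Calr, the most abundant member, differed by -0.04 (adjusted p = 0.677).

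Since the amino acid genes differed together, their promoters were searched for the letters TGATGNAA, the core of the C/EBP-ATF response element that Atf4 can bind, on both strands of the 250 bases before each gene's start (RefSeq, GRCm38.p6). These letters were in 3.45% of 32851 promoter windows and in 2.32% of the 9308 tested genes with a window. Of the 84 tested genes on the 5 amino acid lists, 63 had a window and 12 of these (19%) held the letters. They were in 5 of 19 matched integrated stress response genes, 3 of 12 other amino acid enzymes, 1 of 10 transporters, 3 of 12 cytosolic tRNA synthetases and 0 of 10 serine and one-carbon enzymes. The integrated stress response list was made of targets and partners of Atf4, so a high share there could be foreseen. The windows of Trib3 and Gpt2, the largest differences on these lists, held no match, nor did those of Mthfd2, Bcat1, Shmt2 and Slc6a9. Of the 45 called-higher genes with a window, 11 held the letters, namely Aars, Asns, Chac1, Fgf21, Gars, Got1, Nupr1, Pycr1, Slc7a11, Tars and Vldlr. Windows of 4 of these genes, from 4 of the lists, are printed to show where the letters lie, 5′ to 3′ on the gene's strand with each match in capitals: Chac1 (chr2:119350992-119351241, + strand), Asns (chr6:7693210-7693459, - strand), Slc7a11 (chr3:50443614-50443863, - strand) and Tars (chr15:11399659-11399908, - strand). The match nearest the left end began 193 bases before the start in Chac1, 23 in Asns, 66 in Slc7a11 and 15 in Tars, and Slc7a11 held 2 matches, 1 on each strand. A match describes the letters and is not evidence of binding.
Chac1: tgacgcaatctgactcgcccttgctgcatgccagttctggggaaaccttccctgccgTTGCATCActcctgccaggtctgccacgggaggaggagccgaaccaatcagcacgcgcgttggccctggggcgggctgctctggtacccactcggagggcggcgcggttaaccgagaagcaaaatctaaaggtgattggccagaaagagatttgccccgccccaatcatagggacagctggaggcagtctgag
Asns: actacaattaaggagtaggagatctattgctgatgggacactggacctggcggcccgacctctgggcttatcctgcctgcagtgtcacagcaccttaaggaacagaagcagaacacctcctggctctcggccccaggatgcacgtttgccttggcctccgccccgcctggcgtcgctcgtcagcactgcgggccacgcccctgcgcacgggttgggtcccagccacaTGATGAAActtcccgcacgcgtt
Slc7a11: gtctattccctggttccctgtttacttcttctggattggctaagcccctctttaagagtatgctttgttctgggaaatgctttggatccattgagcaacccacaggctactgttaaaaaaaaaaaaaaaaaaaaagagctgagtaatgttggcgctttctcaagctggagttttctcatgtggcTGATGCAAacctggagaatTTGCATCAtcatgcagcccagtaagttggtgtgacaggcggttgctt
Tars: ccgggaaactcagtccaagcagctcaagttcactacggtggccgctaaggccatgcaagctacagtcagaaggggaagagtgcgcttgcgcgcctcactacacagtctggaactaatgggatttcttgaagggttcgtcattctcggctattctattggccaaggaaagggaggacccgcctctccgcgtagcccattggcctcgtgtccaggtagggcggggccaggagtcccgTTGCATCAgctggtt

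Ribosome biogenesis genes leaned the same way. Of 32 ribosome biogenesis genes, 24 were higher and 0 lower in shNsd2 (median 0.29), and 24 and 1 without MCTP replicate 2. Npm1, the abundant nucleolar chaperone, was at 14.47, 14.38 and 14.62 in shNsd2 and at 13.70, 14.15 and 13.65 in MCTP. The groups were apart, and MCTP replicate 2 lay nearer to shNsd2 than the other two. The difference was 0.66 (standard error 0.135, adjusted p = 0.00709), 0.82 without MCTP replicate 2 and 0.50 after the GC correction. Wdr43 (0.63), Ncl (0.60) and Nop58 (0.58), which act in ribosomal RNA processing, were higher as well. Myc, which drives this gene group, was at 12.22, 12.28 and 12.30 in shNsd2, at 11.83, 11.75 and 11.77 in MCTP, and at 11.94, 12.12 and 12.17 in control. The 3 groups were apart, with shNsd2 highest. The difference was 0.48 (standard error 0.0464, adjusted p = 2.69e-04). In the Myc network as a whole, 4 genes were higher and 2 lower of 11 (median -0.06), 4 and 5 without MCTP replicate 2, and 3 and 2 of 10 under the stricter filter. Mycl (0.30, named after its value was seen) was counted as higher, and its MCTP libraries lay below the filter level. Also called were Mxd4, a repressor that competes with Myc for Max (-1.17), Mlx (-0.35) and Mga (0.60, 0.80 without MCTP replicate 2).

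Few ribosomal protein genes were called. Of 83 cytosolic ribosomal protein genes, 2 were higher and 1 lower (3.61% called), Rpl22l1 (0.41, 0.18 after the GC correction), Rpl36al (0.18, adjusted p = 0.109 with the replicate block) and Rps27l (-0.41, a paralog that p53 induces). The median of -0.002 changed sign under 6 alternatives, the GC correction with or without the replicate block, the length correction, quantile normalization, and the fits without MCTP replicate 3 or shNsd2 replicate 3. Without MCTP replicate 2 the counts were 5 and 16, and after quantile normalization 11 and 2. Mitochondrial ribosomal proteins had 11 higher and 1 lower of 78, including Mrpl50 (0.38, 0.23 after the GC correction), Mrps22 (0.33), Mrpl35 (0.28) and Mrps27 (0.25), with a median of 0.04 that became -0.03 without MCTP replicate 2, where 18 were higher and 15 lower. They were 23 and 2 after the GC correction and 4 and 0 with the replicate block. For nuclear genes of oxidative phosphorylation, 1 was higher and 6 lower of 75 (median -0.08), and without that library 5 and 37, or 3 and 15 after the GC correction. Ndufv3 (-0.38), Ndufa11 (-0.32), Ndufc1 (-0.27) and Uqcrh (-0.27), subunits of the respiratory chain, were among the lower ones. The proteasome had 1 higher, the ATPase subunit Psmc6 (0.52, 0.33 after the GC correction), and 3 lower of 34, Psmb3 (-0.32), Psmd1 (-0.19) and Psmd11 (-0.15) (median -0.09), against 1 and 19 without that library and 1 and 9 after the GC correction. The replicate block ended the calls of Psmd1 (adjusted p = 0.0829) and Psmd11 (0.140). Heat shock proteins went both ways, with 5 higher and 3 lower of 14 (median 0.11), and 8 and 3 after the GC correction or 7 and 2 after quantile normalization (median 0.21). The mitochondrial chaperones Hspa9 (0.58) and Hspd1 (0.49) and the cochaperone Hsph1 (0.57) were higher, and the small heat shock protein Hspb1 was lower (-1.01).

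In the uncorrected fit of all 6 libraries, cell cycle genes were higher in shNsd2 wherever they were called, apart from 3 G1 regulators. Of 42 DNA replication genes, 33 were higher and 0 lower (median 0.27), and 35 and 2 without MCTP replicate 2. Mcm5, a subunit of the replicative helicase, was at 13.14, 13.10 and 12.99 in shNsd2, at 12.73, 12.49 and 12.82 in MCTP, and at 12.73, 12.79 and 12.71 in control. The shNsd2 libraries were high, while MCTP spread around control. The difference was 0.40 (standard error 0.0877, adjusted p = 0.00967). Pola1, the catalytic subunit of the priming polymerase, differed by 0.64 (0.82 without MCTP replicate 2, 0.48 after the GC correction), the licensing factor Cdt1 by 0.49 and Rfc1, of the clamp loader, by 0.40. Rrm2, a ribonucleotide reductase subunit and the most abundant member, differed by -0.11 (adjusted p = 0.0833), and by -0.12 without MCTP replicate 2 (0.0258) or after the GC correction (0.0312), where it was called. Against control, the list's median was 0.11 for shNsd2 and -0.12 for MCTP.

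Of 40 mitosis genes, 20 were higher and 0 lower (median 0.20), and 29 were higher and 2 lower without MCTP replicate 2. Mki67, the Ki67 antigen of cycling cells, was at 13.37, 13.28 and 13.49 in shNsd2, at 12.67, 13.15 and 12.62 in MCTP, and at 13.54, 13.37 and 13.16 in control. MCTP replicate 2 was close to the lowest control library and the other two lay lower. The difference was 0.57 (adjusted p = 0.0137), 0.73 without that library. The kinesin Kif20b (0.61) and the checkpoint kinase Bub1 (0.59) had adjusted p values of 0.0138 and 0.0169, and both were at 0.36 after the GC correction and at 0.78 without that library. Top2a, a topoisomerase on the same list, differed by 0.55. G1 regulators had 7 higher and 3 lower of 23 (median 0.12), 12 and 4 without MCTP replicate 2, 10 and 5 after the GC correction, and 4 and 3 with the replicate block or centred on medians. The share of G1 regulators called was 43.5%, near the 43.2% of all genes tested. The activator E2f2 (0.61), the pocket protein Rbl1 (0.55), E2f4 (0.41) and cyclin D1, Ccnd1 (0.19, adjusted p = 0.139 with the replicate block), were higher.

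The p53 targets formed the gene group with the lowest median, except under the stricter filter, where xenobiotic enzymes were at -0.43 and p53 targets at -0.37. Of 23 tested, 3 were higher and 16 lower in shNsd2 (median -0.38), and at 14 of the 19 called genes the control mean lay below both groups. Cdkn1a (ENSMUSG00000023067.7, chromosome 17, 29090976-29100727), the Cdk inhibitor p21, was at 12.75, 12.71 and 12.70 in shNsd2, at 13.43, 13.29 and 13.56 in MCTP, and at 12.38, 12.54 and 12.54 in control. Control was lowest and MCTP highest, without overlap. The difference was -0.71 (standard error 0.0702, 95% interval -0.87 to -0.54, adjusted p = 3.20e-04). Btg2, an antiproliferative cofactor, was at 10.17, 10.22 and 10.24 in shNsd2 and at 11.23, 11.22 and 11.23 in MCTP, a difference of -1.01. Ccng1 (-0.71, -0.56 without MCTP replicate 2) and the death domain adaptor Pidd1 (-0.68) were also lower. Against control the list's median was 0.18 for shNsd2 and 0.54 for MCTP. Plk3 (0.47), Trp53 itself (0.36) and Gadd45a (0.29) were the 3 higher ones, named after their values were seen.

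Genes of the matrix and of contractile cells included the largest difference in favour of MCTP. Acta2 (ENSMUSG00000035783.8, chromosome 19, 34241090-34255590) was at 6.04, 6.18 and 6.01 in shNsd2, at 8.91, 8.81 and 9.16 in MCTP, and at 5.83, 6.03 and 5.98 in control. The MCTP libraries alone were high, and shNsd2 and control overlapped. The difference was -2.89 (standard error 0.0932, 95% interval -3.10 to -2.67, adjusted p = 9.56e-06) and the largest of all genes tested. Ccn2, a matricellular growth factor induced by TGF-beta and Yap, lay between 9.93 and 10.09 in the 3 shNsd2 libraries, at 11.59, 11.50 and 11.59 in MCTP, and at 10.68, 10.68 and 10.60 in control. Here shNsd2 lay below and MCTP above every control library. The difference was -1.55 (standard error 0.0569, adjusted p = 1.26e-05), 2.93-fold. In the list of EMT regulators and mesenchymal genes, 4 were higher and 13 lower of 25 (median -0.15, and -0.26 under the stricter filter), including the matrix glycoprotein Tnc (-1.16), Ccn1 (-0.74), a relative of Ccn2, and vimentin, Vim (-0.48), the intermediate filament of mesenchymal cells. Those higher were Etv4 (0.42) and, named after their values were seen, Snai2 (0.28), Hmga2 (0.26) and Twist2 (0.23), while Twist1 (-0.15), named in the same way, was lower. With the replicate block the counts were 2 and 12, and Hmga2 (adjusted p = 0.0649) and Twist2 (0.0595) were not called.

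Matrix proteases and their inhibitors had 2 higher and 15 lower of 25 (median -0.32). Timp3 (ENSMUSG00000020044.7, chromosome 10, 86300372-86349506), an inhibitor bound to the matrix, was at 9.92, 9.92 and 9.85 in shNsd2, at 11.80, 11.91 and 11.84 in MCTP, and at 10.51, 10.58 and 10.51 in control. The groups were apart, with control between. The difference was -1.95 (standard error 0.0494, 95% interval -2.06 to -1.83, adjusted p = 6.65e-06), a 3.86-fold higher level in MCTP. Adamts1 (-1.39), a secreted protease, Serpine2 (-0.69), a protease inhibitor, Mmp15 (-0.61), anchored in the membrane, and the inhibitor Timp2 (-0.52) were also lower. Thbs1, or thrombospondin, which binds matrix and activates TGF-beta, was at 14.46, 14.47 and 14.43 in shNsd2, at 15.96, 15.99 and 15.77 in MCTP, and at 15.45, 15.26 and 15.31 in control. Again control lay between groups that did not overlap. The difference was -1.46 (standard error 0.0693, adjusted p = 2.07e-05).

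Collagens and basement membrane genes had 1 higher and 14 lower of 32 (median -0.13), 1 and 8 with the replicate block, and 1 and 12 of 27 under the stricter filter. The share called in either direction was 46.9%, near the 43.2% of all genes tested. Lama3 (-0.12, named after its value was seen) was counted as lower, and its shNsd2 libraries lay below the filter level. The lower ones included Col12a1 (-0.85), Col4a5 (-0.67), Loxl2 (-0.59), which crosslinks collagen, and Col5a2 (-0.58). Against control their medians were -0.27 for shNsd2 and -0.12 for MCTP. Of 15 integrin subunits, 3 were higher and 7 lower (median -0.19), and 2 and 4 with the replicate block, which ended the call of Itga3 (adjusted p = 0.0929). Itgb7 (0.41), Itga2 (0.40) and Itga3 (0.23) were higher, and Itga2b (-0.36) and Itgb4 (-0.33) lower. TGF-beta signalling genes had 4 higher and 10 lower of 28, with a median of -0.05 that was 0.00024 under a stricter filter, and 8 and 12 without MCTP replicate 2. The coreceptor Tgfbr3 (-1.13), the ligands Bmp4 (-0.84) and Tgfb2 (-0.66), the response gene Id3 (-0.69) and the receptor Tgfbr2 (-0.42) were lower, while Tgfbr1, named after its value was seen, was higher (0.56).

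Among epithelial and squamous genes, more were lower than higher in shNsd2. Of 21 epithelial adhesion and keratin genes, 4 were higher and 10 lower (median -0.12), and 5 and 13 without MCTP replicate 2 (median -0.19). Krt15, a keratin of basal cells, was at 11.42, 11.34 and 11.29 in shNsd2, at 12.73, 12.44 and 12.68 in MCTP, and at 12.53, 12.56 and 12.56 in control. The shNsd2 libraries alone were low, and MCTP spread on both sides of control. The difference was -1.27 (standard error 0.0799, adjusted p = 4.82e-05). The tight junction protein Cldn4 (-0.72), Krt19 (-0.71) and Krt8 (-0.46) were lower too, and Krt18, the partner of Krt8, differed by 0.00 (adjusted p = 0.991). The 4 higher genes, named after their values were seen, were Tjp1 (0.39), Krt7 (0.36), Pkp1 (0.28) and Cdh1 (0.14, not called with the replicate block, adjusted p = 0.170). Of the 4 basal prostate markers tested, all 4 were lower. In squamous differentiation, 0 were higher and 7 lower of 14 (median -0.20), and 0 and 3 of 7 under the stricter filter. Sprr1a (ENSMUSG00000050359.6, chromosome 3, 92483952-92485895), a precursor of the cornified envelope, was at 8.87, 8.93 and 8.74 in shNsd2, at 11.49, 11.24 and 11.70 in MCTP, and at 9.74, 9.85 and 9.91 in control. Control lay between shNsd2 and MCTP, and no library of one group reached another. The difference was -2.63 (standard error 0.113, 95% interval -2.90 to -2.37, adjusted p = 1.65e-05), 6.20-fold. Sprr2h (-1.48), Sprr2a2 (-0.95) and Krt13 (-0.79) were lower. The Sprr2 genes are close paralogs, and how reads shared between them were assigned is not stated.

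Enzymes that handle foreign compounds were more often higher than lower in the treated cells. Of 24 xenobiotic enzymes and Ahr targets, 0 were higher and 16 lower in shNsd2 (median -0.33), 1 and 20 without MCTP replicate 2 and 0 and 13 with the replicate block. The microsomal epoxide hydrolase Ephx1 was at 11.33, 11.27 and 11.25 in shNsd2, at 12.63, 12.43 and 12.81 in MCTP, and at 11.08, 11.12 and 11.13 in control. MCTP stood more than 1 log2 unit above both other groups. The difference was -1.34 (standard error 0.0924, adjusted p = 6.92e-05), 2.53-fold. Ces2e, a carboxylesterase, was at 6.89, 6.89 and 6.85 in shNsd2, at 9.49, 9.32 and 9.66 in MCTP, and at 6.46, 6.43 and 6.41 in control. The difference was -2.61 (standard error 0.0836, adjusted p = 9.56e-06). Its paralog Ces2g (-1.31) and the aldehyde dehydrogenase Aldh3a1 (-1.20) were lower as well, like the reductase Cyb5r3 (-0.23, not called with the replicate block, adjusted p = 0.0819), the most abundant member, and reads shared by the carboxylesterase or glutathione transferase paralogs carry the same uncertainty. Nrf2 targets, the antioxidant genes, had 1 higher and 14 lower of 31 (median -0.23), and 3 and 20 without MCTP replicate 2. The share of Nrf2 targets called in either direction was 48.4%, against 43.2% of all genes tested. Gstm2 (-1.23), Gsta4 (-0.77) and Gstm1 (-0.60) conjugate glutathione, and Srxn1 (-0.53) repairs oxidised peroxiredoxins. At 10 of the 15 called genes the control mean lay below both groups, and the medians against control were 0.07 for shNsd2 and 0.41 for MCTP.

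Of 53 lysosome and V-ATPase genes, 0 were higher and 36 lower in shNsd2 (median -0.26). The counts were 0 and 45 without MCTP replicate 2, 0 and 28 with the replicate block, and 1 and 41 after the GC correction. The protease Ctsd was at 14.62, 14.55 and 14.51 in shNsd2, at 15.19, 14.98 and 15.39 in MCTP, and at 14.38, 14.48 and 14.50 in control. All MCTP libraries were above the rest. The difference was -0.63 (standard error 0.10, adjusted p = 0.00247). Idua (-0.66), which degrades glycosaminoglycans, the proton pump subunit Atp6v0d1 (-0.62) and the peptidase Tpp1 (-0.59) were lower, as was Psap (-0.30), the precursor of saposins. Against control the list's median was -0.08 for shNsd2 and 0.18 for MCTP.

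Interferon and antigen presentation genes were more often lower than higher in shNsd2. Of 31 interferon-stimulated genes, 3 were higher and 14 lower (median -0.15), and 0 and 8 of 18 under the stricter filter. Ifi27 was at 8.64, 8.65 and 8.64 in shNsd2, at 9.69, 9.52 and 9.81 in MCTP, and at 8.98, 9.03 and 8.95 in control. The groups were apart, with control between. The difference was -1.03 (adjusted p = 8.99e-05). The GTPase Gbp2 (-0.71), the RNA sensor Ddx58 (-0.66) and Ifi35 (-0.52) were lower, as was Lgals3bp, the most abundant member (-0.24, not called with the replicate block, adjusted p = 0.070), while Rsad2 (0.40), Oasl1 (0.37) and Oasl2 (0.22), named after their values were seen, were higher. For MHC class I presentation, 2 were higher and 8 lower of 17 (median -0.18), 3 and 13 without MCTP replicate 2 and 1 and 5 with the replicate block. Lower were the peptide transporter subunits Tap1 (-0.72) and Tap2 (-0.61), the immunoproteasome subunit Psmb8 (-0.50) and the class I genes H2-T22 (-0.37) and H2-D1 (-0.24, adjusted p = 0.0768 with the replicate block), which have close paralogs. Cytokines and NF-kB targets had 5 higher and 6 lower of 21 (median 0.04), 1 and 4 of 12 under the stricter filter and 7 and 9 after the GC correction (median 0.07). Il33, an alarmin of epithelial nuclei, was at 9.94, 9.95 and 10.04 in shNsd2, at 10.82, 10.87 and 10.78 in MCTP, and at 11.20, 11.17 and 11.10 in control. Both groups lay below control, shNsd2 further. The difference was -0.84 (standard error 0.0512, adjusted p = 4.31e-05). The prostaglandin synthase Ptges (-0.33) and the NF-kB inhibitor Nfkbia (-0.25) were lower and the chemokine Cxcl10 (0.26) higher. Ptgs2, the inducible cyclooxygenase, was above control in both groups and differed by -0.11 between them (adjusted p = 0.562), by -0.25 after the GC correction (adjusted p = 0.0188) and by 0.05 without MCTP replicate 2.

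Lipid synthesis genes were more often lower than higher in shNsd2. Of 35 cholesterol and fatty acid synthesis genes, 1 was higher and 17 lower (median -0.17), and the counts were 2 and 27 without MCTP replicate 2 and 0 and 13 with the replicate block. At 15 of the 18 called genes the control mean lay above both groups, and the medians against the shared control were -0.67 for shNsd2 and -0.45 for MCTP. Hsd17b7, a late enzyme of cholesterol synthesis, was at 9.52, 9.52 and 9.58 in shNsd2, at 10.41, 10.47 and 10.35 in MCTP, and at 10.33, 10.21 and 10.16 in control. It was above control in MCTP. The difference was -0.87 (standard error 0.0512, adjusted p = 4.17e-05). Acss2 (-0.47), which makes acetyl-CoA from acetate, the desaturases Scd1 (-0.40) and Scd2 (-0.18, not called with the replicate block, adjusted p = 0.167, and -0.09 after quantile normalization) and mevalonate kinase, Mvk (-0.38), were lower. Glycolysis and hypoxia genes had 2 higher and 8 lower of 33 (median -0.06), 5 and 17 without MCTP replicate 2, 6 and 8 after quantile normalization, and 2 and 5 of 29 under the stricter filter. Aldoc (-0.57), an aldolase, Pfkfb3 (-0.55), which sets the rate of glycolysis, and Bnip3 (-0.36) were lower and Vegfa (0.31) was higher, while Gapdh differed by 0.09 (adjusted p = 0.514). Of 19 iron genes, 4 were higher and 8 lower (median -0.09), 6 and 10 without MCTP replicate 2 (median -0.16), and 4 and 5 of 16 under the stricter filter (median -0.0099). Slc39a8 (-0.21, named after its value was seen) was counted as lower, and its shNsd2 libraries lay below the filter level. The ferroxidase ceruloplasmin, Cp, had a mean of 10.06 ± 0.0724 (SD, n = 3) in shNsd2, with libraries at 10.73, 10.89 and 10.62 in MCTP and at 11.61, 11.45 and 11.45 in control. The difference was -0.68, and both groups lay below control. The exporter Slc40a1 (-0.44) and the ferritin light chain Ftl1 (-0.35) were lower, though Ftl1 was not called after quantile normalization (-0.11) or with the replicate block (adjusted p = 0.0697), and the metalloreductases Steap1 (0.61) and Steap2 (0.43) higher.

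Output and feedback genes of the Ras-MAPK pathway had 14 higher and 4 lower of 25 (median 0.18), 15 and 7 without MCTP replicate 2 and 10 and 2 with the replicate block. The immediate early genes Ier2 (0.50) and Fosb (0.47), the Ets factor Etv4 (0.42) and the phosphatases Dusp7 (0.39) and Dusp6 (0.19, adjusted p = 0.093 with the replicate block) were higher. The 4 lower genes, named after their values were seen, were the feedback genes Spry1 (-0.38), Dusp1 (-0.27), Spred3 (-0.19) and Spry2 (-0.17), of which Spred3 (adjusted p = 0.115) and Spry2 were not called with the replicate block. Against control the medians were 0.01 for shNsd2 and -0.16 for MCTP. In the EGF family, 4 were higher and 3 lower of 12 (median -0.04), 4 and 6 after the GC correction, and 4 and 1 of 10 under the stricter filter (median -0.0045). The feedback inhibitor Errfi1 (0.50) was higher. The receptor Erbb3 was at 7.92, 7.86 and 7.96 in shNsd2, at 7.38, 7.42 and 7.41 in MCTP, and at 7.45, 7.43 and 7.57 in control, a difference of 0.51 with shNsd2 high. Egfr, the founding receptor, went the other way (-0.40), as did the Erbb3 ligand Nrg1 (-0.34). Areg, the most abundant ligand, differed by -0.10 (adjusted p = 0.0895), and by -0.11 after the GC correction (adjusted p = 0.0173).

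Wnt and planar polarity genes had 5 higher and 11 lower of 26 (median -0.05), 3 and 10 of 19 under the stricter filter (median -0.19), and 3 and 9 with the replicate block. Wnt7a was at 6.15, 6.08 and 6.24 in shNsd2, at 4.76, 4.72 and 4.89 in MCTP, and at 4.68, 4.68 and 4.69 in control. The shNsd2 libraries alone were high, and the other two groups lay near the low end of the table. The difference was 1.37 (standard error 0.0584, adjusted p = 1.65e-05). Its paralog Wnt7b was at 10.67, 10.65 and 10.66 in shNsd2, at 9.76, 9.53 and 9.66 in MCTP, and at 10.28, 10.57 and 10.64 in control. That difference was 1.01 (adjusted p = 5.12e-05), with MCTP low. The ligands Wnt4 (-0.54) and Wnt9a (-0.53) were lower, and Ctnnb1, which encodes beta-catenin, differed by -0.02 (adjusted p = 0.820).

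Several of the largest differences among well-expressed genes lay outside the lists. Rif1, which protects DNA breaks from resection and sets replication timing, was at 10.44, 10.34 and 10.68 in shNsd2, at 9.17, 9.67 and 9.03 in MCTP, and at 10.28, 10.11 and 9.96 in control. MCTP was low, least so in replicate 2. The difference was 1.2 (standard error 0.166, adjusted p = 0.00137), 1.39 without MCTP replicate 2 and 0.93 after the GC correction. Glce, an epimerase of heparan sulfate synthesis, differed by 0.97. Txnip, which binds thioredoxin and limits glucose uptake, was at 11.36, 11.29 and 11.31 in shNsd2, at 12.93, 12.81 and 12.95 in MCTP, and at 11.90, 11.90 and 11.99 in control. The groups were apart, with control between. The difference was -1.58 (standard error 0.0521, adjusted p = 9.56e-06). Lower as well were Angptl4 (-1.57), an inhibitor of lipoprotein lipase, and Lpl, that lipase itself (-1.40), the protease inhibitor Serpinb9b (-1.47), the actin-binding protein Synpo (-1.41), the glycosyltransferase Galnt18 (-1.33) and the matrix protein Ecm1 (-1.29).

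The most abundant member of a list was in several cases not called. Its difference was 0.18 for the mitochondrial synthetase Lars2 (adjusted p = 0.360), 0.14 for the mitochondrial ribosomal protein Mrpl12 (adjusted p = 0.292) and 0.07 for the chaperone Hsp90ab1 (adjusted p = 0.441). The ATP synthase subunit Atp5b differed by 0.05 (adjusted p = 0.651), the ribosomal protein Rpsa by 0.04 (adjusted p = 0.772), the laminin Lama5 by 0.03 (adjusted p = 0.633) and the transaminase Got2 by 0.02 (adjusted p = 0.817). For the proteasome subunit Psmd2 the value was -0.11 (adjusted p = 0.189) and for S100a6, a calcium-binding protein, -0.17 (adjusted p = 0.170). Some were called elsewhere: Psmd2 (-0.17, adjusted p = 0.00642) and S100a6 (-0.23, adjusted p = 0.0185) without MCTP replicate 2, Lars2 without MCTP replicate 3 (0.33), Mrpl12 after the GC correction (0.19, adjusted p = 0.027), and Hsp90ab1 (0.21) and Rpsa (0.18) after quantile normalization. Without MCTP replicate 2, Lars2 (adjusted p = 0.8) and Mrpl12 (adjusted p = 0.675) each differed by 0.03.

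Other motifs were searched in the same windows, each on the list whose factor it belongs to. The E2F core TTTNNCGC was in 23.5% of 34 matched DNA replication genes, against 8.65% of tested genes with a window. CCAAT, bound by NF-Y, was in 78.8% of 33 mitosis genes against 41%. The interferon-stimulated response element core GAAANNGAA was in 34.6% of 26 genes against 7.09%, and the antioxidant response element core TGACNNNGC in 29.2% of 24 Nrf2 targets against 14%. The E-box CACGTG of Myc and Max was in 7.14% of 28 ribosome biogenesis genes against 10.1%, and the sterol regulatory element TCACNCCAC in 0 of 24 lipid synthesis genes against 1.24%. Over all 32851 windows the shares were 4.28%, 33.8%, 7.13%, 10.2%, 6.02% and 1.05% in the order given. The shares describe letters in these windows, and none was tested.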

How the data were processed

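The authors deposited 1 table of log2 values for 12842 genes. Its header does not name the transform. The table analysed here holds no counts, which leaves sequencing depth unknown, and the log2 test took the place of a planned count test. Of 12 value columns, 3 could be matched to no library and were set aside. Per the submitters' processing notes, the reads were handled with bcl2fastq 1.8.4, TopHat, Cufflinks, DESeq and DESeq2 on build mm9. The members and lists were chosen with earlier results of these data known.

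A gene was tested when 3 or more of the 6 libraries exceeded 3.78, the median over the lowest 10% of values. The 2 groups were compared by limma 3.58.1 (R 4.3.3), using eBayes with its trend option, and p-values were adjusted by the Benjamini-Hochberg method over the 12217 genes tested and a threshold of 0.05. These p-values measure spread between these libraries only, which may be technical. The procedure was tested on simulated data. Their noise was drawn independently for each gene and library, so deviations shared across genes were not covered. Alternatives were other filters, all 9 libraries in 1 fit, the replicate number as a block, each library left out, other scalings, eBayes without a trend, and corrections for GC content or transcript length (lowess, span 0.3).

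The genes named were the H3K36 enzymes, the 15 largest differences in each direction among called genes with non-overlapping groups, a mean above the median and an official symbol, and, in each of the 40 lists, up to 4 called members with the largest differences and the most abundant member, 210 genes in all. Apart from cell type markers and the promoter search, genes named outside this rule are marked as named after their values were seen. For each list the counts and the median are given, with no set test. They are to be read against all genes tested, with 20.6% higher, 22.6% lower and a median of 0.0072. Some genes and alleles that the lists and labels cover are not reported here. Coordinates, GC content and transcript lengths are from GENCODE M21 (GRCm38), in which 12513 of the 12842 identifiers (97.4%) were found.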

Additional observations from a re-analysis of the deposited data

Results flagged for a closer look

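At 67 of the 188 called genes among the 210 named by rule, every shNsd2 library lay on one side of all 3 control libraries and every MCTP library on the other. The same was true of 1160 of all 5276 called genes (22%). The named genes were picked largely by the size of their difference, so their share cannot be set against that of all called genes. The test of the difference between the groups was the direct comparison with limma, and the log2 difference, shNsd2 minus MCTP, is given for each gene.

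With shNsd2 above control and MCTP below, the amino acid and stress genes were Trib3 (1.90), Gpt2 (1.73), Cth (1.60), Aldh1l2 (1.57), Bcat1 (1.44), Slc6a9 (1.36), Shmt2 (1.15), Psat1 (0.95), Phgdh (0.60), Hspd1 (0.49), Hspa5 (0.45) and Wars2 (0.37). Genes of growth and the cell cycle on the same side were Rif1 (1.2), Wdr43 (0.63), E2f2 (0.61), Ncl (0.60), Nop58 (0.58), Cdt1 (0.49), Myc (0.48) and Mrps22 (0.33). Chromatin genes were Dnmt1 (0.38), Rbbp7 (0.32), Uhrf1 (0.31) and Dnmt3b (0.26), and signalling genes were Wnt7b (1.01), Erbb3 (0.51), Errfi1 (0.50), Dusp7 (0.39) and Dusp6 (0.19).

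In the opposite pattern, with shNsd2 below control and MCTP above, matrix and cytoskeletal genes were Timp3 (-1.95), Ccn2 (-1.55), Thbs1 (-1.46), Synpo (-1.41), Adamts1 (-1.39), Ecm1 (-1.29), Tnc (-1.16), Col12a1 (-0.85), Loxl2 (-0.59), Col5a2 (-0.58), Timp2 (-0.52), Vim (-0.48) and Itga2b (-0.36). Epithelial and squamous genes were Sprr1a (-2.63), Sprr2a2 (-0.95), Cldn4 (-0.72) and Krt19 (-0.71). Growth factor genes were Tgfbr3 (-1.13), Bmp4 (-0.84), Tgfb2 (-0.66), Tgfbr2 (-0.42) and Egfr (-0.40). Genes of metabolism, detoxification and turnover were Txnip (-1.58), Angptl4 (-1.57), Lpl (-1.40), Galnt18 (-1.33), Gstm2 (-1.23), Hsd17b7 (-0.87), Idua (-0.66), Gstm1 (-0.60), Tpp1 (-0.59), Pfkfb3 (-0.55), Ndufc1 (-0.27) and Psmd1 (-0.19). The remaining genes were Serpinb9b (-1.47), Ifi27 (-1.03), Gbp2 (-0.71) and Ddx58 (-0.66).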

How the results depend on the processing

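The count of genes called was 5276 and ran from 3794 to 6775 under the alternatives that kept all 6 libraries. It was 3794 with a replicate block (1715 higher, 2079 lower) and 5729 with the replicate block and the GC correction together. The log2 difference of Nsd2 was -0.53 with the replicate block (adjusted p = 0.0028, with a range of 9.18e-06 to 0.00504 over all alternatives). Deviations of same-numbered libraries from their group means correlated at -0.36 on average across genes and those of other numbers at 0.23. The deviations also followed GC content, so these correlations cannot show whether libraries were paired by number. With each library left out in turn, 3391 to 7781 genes were called and Nsd2 lay between -0.56 and -0.49. The count fell by more than 1.5 times without MCTP replicate 1 (3391), without shNsd2 replicate 2 (3429) and without shNsd2 replicate 3 (3420). The cause was not tested. Of the 5276 genes, 2973 were called in all 6 of these fits, and 0 changed sign in any of them. The share of called genes that were higher in shNsd2 was between 41.5% and 52.4%, against 47.6%.

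The median of the TGF-beta signalling list was 0.00024 under the stricter filter, where 22 of its genes were tested. Among the 209 other named genes (194 under that filter), 0 called differences changed sign, while 9 uncalled ones near 0 did, such as Gapdh (0.09, -0.01 without MCTP replicate 2). Among these 209, picked by rule, the replicate block ended the call of 16 genes, the fit without MCTP replicate 1 of 36, and the GC correction of 1 while adding 7. Calls also ended at 23 genes without shNsd2 replicate 1, at 25 without shNsd2 replicate 2 and at 32 without shNsd2 replicate 3. Without MCTP replicate 3 the number was 14. The count test with DESeq2 was not run, because the values analysed here are not counts. Sequencing depth is unknown for that reason.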
